A study of Mus musculus with 8 samples.

Results

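Fibrillar collagens are the collagens that assemble into the banded fibres of skin, tendon, bone and cartilage. The mouse genes followed here are 10 in number, of 43346 genes in the deposited table: Col1a1 and Col1a2 (type I), Col2a1 (type II), Col3a1 (type III), Col5a1, Col5a2 and Col5a3 (type V), Col11a1 (type XI), Col24a1 (type XXIV) and Col27a1 (type XXVII). They were found in the table by symbol, and each symbol matched a single gene. The other chain of type XI collagen, Col11a2, was not among the chosen symbols.

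The samples were myofibroblasts sorted from healing skin wounds of Sm22-Cre;tdTomato mice on a mixed background, at days 12, 15, 21 and 26 post wounding, with 2 libraries for each day and 8 in all. The Sm22 promoter, which drives the Cre, is active in contractile cells, and a cell in which Cre has acted keeps the red label, so the sort takes labelled cells whatever they express on the day. Viable cells with high tdTomato were collected, all mice carried the same alleles, and no unwounded skin was analysed here. The labels give neither the animals' age nor which animals each library holds, so p-values measure only the spread between these libraries, which may be technical.

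Fibroblasts make fibrillar collagens as soluble procollagen chains. These are hydroxylated and folded into triple helices in the endoplasmic reticulum, trimmed at both ends by proteases outside or near the cell surface, assembled into fibrils and crosslinked by lysyl oxidases. In skin, type I forms most of the fibril mass, type III is abundant in early wound tissue, and type V starts fibrils and limits their diameter. Types II, XI, XXIV and XXVII are known chiefly from cartilage and bone.

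Levels are in TPM, that is, transcript numbers scaled for gene length and to a fixed sum in each library, so genes can be compared within a library. TPM keep no record of the number of reads, so the depth is unknown and no interval for counting error is given. Between 13135 and 14147 genes reached 1 TPM in a library. The fibroblast markers were abundant in all libraries, with summed levels of 7548 and 8658 TPM on day 12 that reached 16559 and 17400 TPM by day 26, and 4 of 9 rose between these days while 1 fell. Most of that gain in the sum was Dcn, decorin, with means of 2979 and 10351 TPM, and 1 marker rose without day 12 library 2 or without day 26 library 1. Of 5 markers of contractile myofibroblasts, 3 fell from day 12 to day 26, or 2 without either day 12 library or day 26 library 1 and 5 without day 26 library 2. Markers of macrophages and other leukocytes summed to 6093 and 4079 TPM on day 12 but to 807 and 1485 TPM by day 26, and 12 of 13 fell, or 7 without day 12 library 2. Keratinocyte markers went the other way, from 7.05 and 6.27 TPM to 357 and 642 TPM, and 9 of 9 tested rose, or 6 to 9 without single libraries. None of the defining markers of either list was at 0 in all libraries. Markers of pericytes and smooth muscle summed to 1972.5 and 704 TPM on day 15 and to between 365 and 1340 TPM on the other days. Schwann cell markers summed to between 83.4 and 540 TPM and endothelial markers to between 84.9 and 196 TPM. In the fit to all libraries, 0 genes of these lists passed from day 12 to day 26. Their part in the collagen levels was not tested. Xist stood at 30.7 TPM in day 15 library 1 and 27.5 TPM in day 21 library 3, between 4.78 and 5.54 TPM in the other libraries of those days, and at no more than 0.01 TPM on days 12 and 26. In Xist, every library of days 15 and 21 was thus above every library of days 12 and 26. Leaving out the pair highest in Xist does not remove that difference, and its part in the steps between days was not tested. Library numbers are those of the deposited value columns.

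The type I and type III genes were among the most abundant messages of these cells and rose from day 12 to day 26. Col1a1 encodes the alpha 1 chain of type I collagen and lies at chr11:94936224-94953042 (GRCm38, plus strand). It stood at 14131 and 19263 TPM on day 12, at 15531 and 17545 TPM by day 15, at 34736 and 27182 TPM by day 21, and at 36951 and 31820 TPM by day 26. Every library of days 21 and 26 was above every library of days 12 and 15. In the ranking of all genes by TPM, Col1a1 held place 2, 3 or 4 in each library.

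Col1a2, at chr6:4504814-4541544 (plus strand), encodes the alpha 2 chain that joins a pair of alpha 1 chains in the usual type I molecule. It stood at 8621 and 11543 TPM on day 12, at 11636 and 13062 TPM by day 15, at 20228 and 16172 TPM by day 21, and at 25064 and 19618 TPM by day 26. As for Col1a1, the later libraries did not overlap the earlier ones. Col3a1, whose product forms type III homotrimers, lies at chr1:45311538-45349706 (plus strand). It stood at 10942 and 15690 TPM on day 12, at 17470 and 16974 TPM by day 15, at 27167 and 21581 TPM by day 21, and at 31452 and 30391 TPM by day 26. The day 12 libraries lay below all others and the day 26 libraries above all others. Col1a1 and Col3a1 overlapped on day 15, where their order differed between the libraries, and Col1a1 was the higher of the pair in each library of days 12, 21 and 26. On its strand Col3a1 shares 141 bp of exon with the gene model Gm47302, and how the authors' counting split those reads is unknown.

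**Figure D1:**
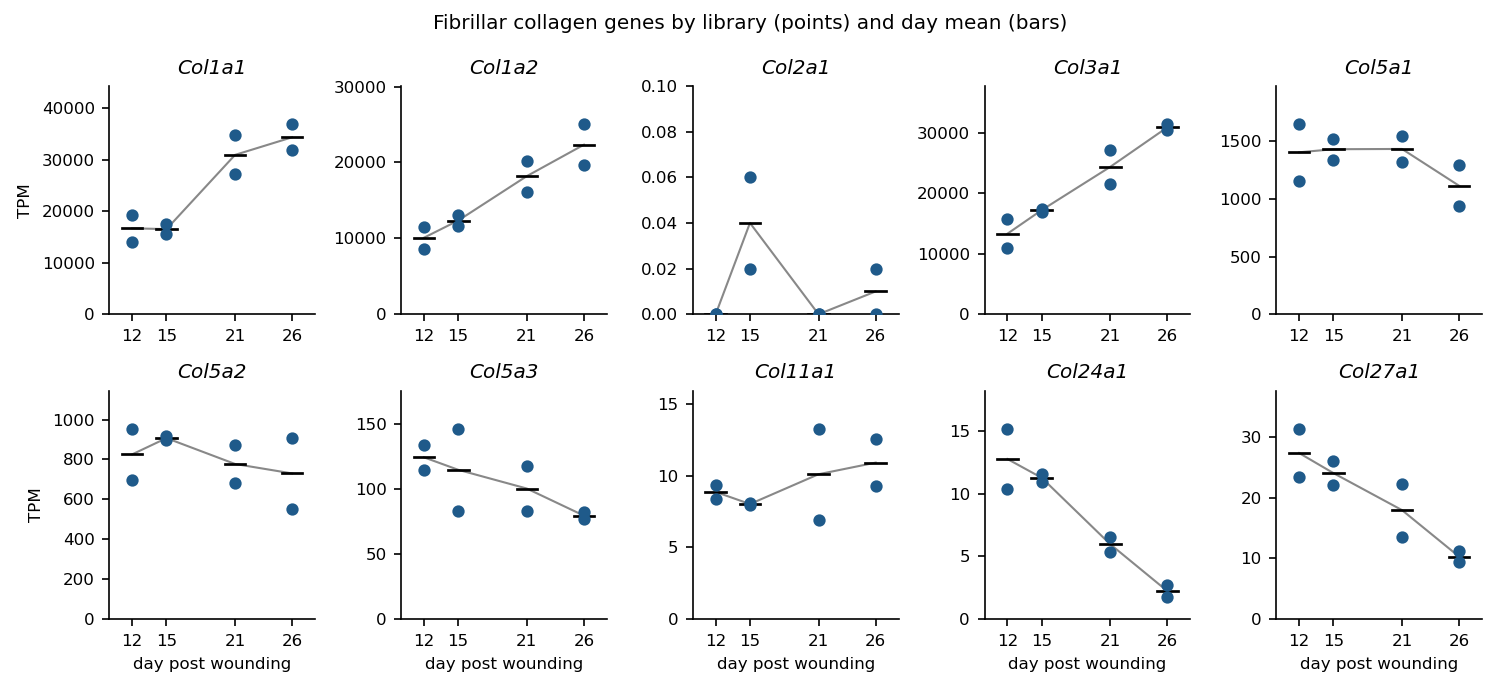
TPM of the fibrillar collagen genes (vertical axis, linear from 0, own scale for each gene) against day post wounding, with points for the libraries and bars for the mean of the 2 libraries of a day. Col1a1, Col1a2 and Col3a1 are the most abundant and are highest on day 26, whereas Col24a1 and Col27a1 are lowest on day 26.

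From day 12 to day 26, in limma's test over 15062 genes, the rise on the log2(TPM + 1) scale was 1.06 for Col1a1 (SE 0.23, adjusted p 0.0156, 95% interval 0.54 to 1.57), a fold of 2.08. It was 1.15 for Col1a2 (SE 0.22, adjusted p 0.0099), a fold of 2.22, and 1.24 for Col3a1 (SE 0.22, adjusted p 0.0072), a fold of 2.36. In bulk samples, a gain in the share of cells that make a message and a gain of that message in each cell cannot be told apart. The macrophage markers fell and the keratinocyte markers rose between the same days, with the sums given above, and their part in the rise was not tested.

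These 3 rises did not pass the test under every treatment of the data. Under quantile normalization, which gives equal values to equal ranks, the log2 changes were 0.38, 0.57 and 0.56 with adjusted p between 0.265 and 0.362, and the 3 genes held places 2 to 9 in every library. Without day 12 library 2 the adjusted p were 0.134, 0.0986 and 0.071, and that of Col1a1 was 0.0561 without day 26 library 1 and 0.0848 under median ratio scaling. None of the 3 passed with no filter on low values (adjusted p 0.121 to 0.207). They also did not pass without the pair of libraries high in Xist, which are of days 15 and 21. Neither treatment touches the values of days 12 and 26, and the log2 changes stayed as given above. Only the estimate of spread and the adjustment differed.

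The type V genes showed no such rise. Col5a1, at chr2:27886425-28039514 (plus strand), encodes the chain found in most type V molecules. It stood at 1160 and 1650 TPM on day 12, at 1341 and 1523 TPM by day 15, at 1545 and 1323 TPM by day 21, and at 1293 and 936 TPM by day 26. Days 12 and 26 overlapped, and the log2 change was -0.33 (SE 0.21, adjusted p 0.328, 95% interval -0.82 to 0.16). The whole interval lay below that of Col1a1. Exons of Col5a1 overlap the antisense gene models 2810430I11Rik and Gm13372 over 212 bp, and these libraries do not keep the strand.

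Col5a2, at chr1:45374321-45503282 on the minus strand, encodes the second chain of the common type V molecule. It is the neighbour of Col3a1, 24614 bp away, and the pair is transcribed in opposite directions. Col5a2 stood at 698 and 953 TPM on day 12, at 899 and 915 TPM by day 15, at 874 and 681 TPM by day 21, and at 910 and 550 TPM by day 26. Days 12 and 26 overlapped, and the log2 change was -0.21 (SE 0.25, adjusted p 0.611, 95% interval -0.77 to 0.36), so that these neighbours had intervals that did not meet. Col5a3, at chr9:20770050-20815067 (minus strand), encodes another chain, found in fewer tissues. It stood at 115 and 134 TPM on day 12, at 146 and 83.4 TPM by day 15, at 118 and 83.2 TPM by day 21, and at 77.0 and 82.3 TPM by day 26. The day 26 libraries lay below all others, though narrowly (82.3 against 83.2 TPM). The log2 change of -0.64 (SE 0.26) did not pass, with an adjusted p of 0.135 and an unadjusted p of 0.0393.

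The genes better known from cartilage and bone were far less abundant. Col11a1, at chr3:114030540-114220718 (plus strand), encodes the alpha 1 chain of type XI, which can also combine with type V chains. It stood at 8.37 and 9.37 TPM on day 12, at 8.10 and 7.95 TPM by day 15, at 13.3 and 6.94 TPM by day 21, and at 12.6 and 9.26 TPM by day 26. Days 12 and 26 overlapped, and the log2 change was 0.26 (SE 0.30, adjusted p 0.587, 95% interval -0.42 to 0.93). Col2a1, the main collagen of cartilage, at chr15:97975602-98004695 (minus strand), was at 0 in 5 of 8 libraries and reached at most 0.06 TPM, so it was not tested.

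Col24a1 and Col27a1 fell. Col24a1, at chr3:145292472-145552011 (plus strand), encodes the type XXIV chain, which is known from forming bone. It stood at 10.4 and 15.2 TPM on day 12, at 11.6 and 10.9 TPM by day 15, at 6.54 and 5.38 TPM by day 21, and at 2.69 and 1.76 TPM by day 26. The libraries of days 21 and 26 lay below all those of days 12 and 15, and those of day 26 below all others. The fall on the log2(TPM + 1) scale was -2.08 (SE 0.27, adjusted p 0.00167, 95% interval -2.69 to -1.48). The means were 12.8 TPM on day 12 and 2.23 TPM by day 26, and the added 1 makes the log2 change of such low genes smaller than that of the TPM themselves.

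Col27a1, at chr4:63214004-63334991 (plus strand), encodes the type XXVII chain of thin fibrils in cartilage. It stood at 31.4 and 23.4 TPM on day 12, at 26.05 and 22.1 TPM by day 15, at 22.3 and 13.6 TPM by day 21, and at 9.33 and 11.2 TPM by day 26. The day 26 libraries lay below all others, and the log2 change was -1.32 (SE 0.26, adjusted p 0.0106, 95% interval -1.91 to -0.73). It did not pass without day 12 library 2, with an adjusted p of 0.108, or without day 26 library 1, with an adjusted p of 0.0518, whereas Col24a1 passed in each of the 18 alternatives tried. Cartilage markers were scarce throughout. Their summed level was 22.04 and 24.8 TPM on day 12 but 7.85 and 8.59 TPM by day 26, 2 of 4 tested fell (Col9a2 and Sox9), though none without either day 12 library or without day 26 library 1, and Matn1 was at 0 in every library other than day 15 library 1, at 0.05 TPM. Their part in the fall of Col24a1 and Col27a1 was not tested.

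In all, 3 of 9 tested members rose and 2 fell between days 12 and 26, beside 5.26% of all tested genes that rose and 11.8% that fell (17.0% in either direction). The libraries of days 12 and 26 did not overlap for 3 members that were higher and 3 that were lower on day 26, beside 17.9% and 43.5% of all tested genes. Orders that involve the other days, given above for single members, were not counted over all genes and are descriptions. The median log2 change was -0.21 over the 9 members and -0.20 over all tested genes. The share of higher genes among all called depended on the scaling, at 30.9% with TPM as deposited, 48.9% after quantile normalization and 49.6% after median ratio scaling, where the median of all genes was -0.01 and -0.03. In the F test over the 4 days the same 5 members passed, beside 12.4% of all tested genes. That count was between 0 and 5 over the alternatives, at 1 without day 12 library 2 and 0 without the pair of libraries high in Xist.

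**Figure D2:**
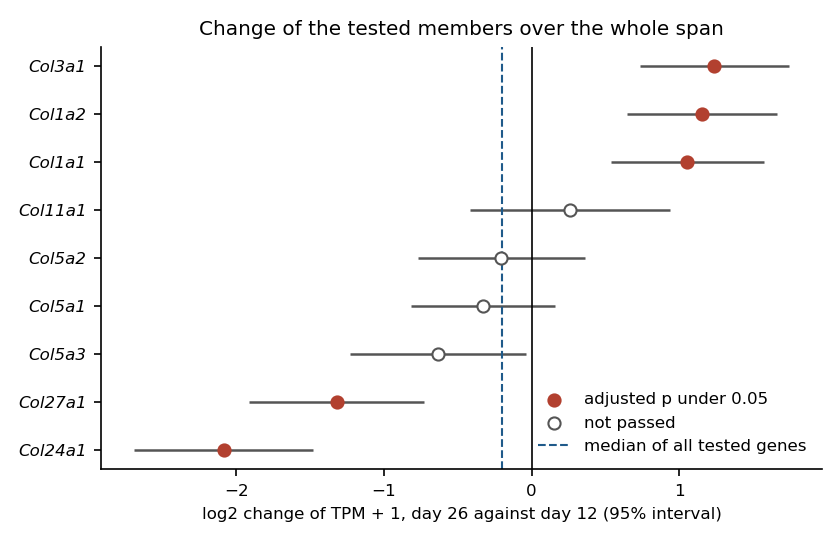
Log2 change of TPM + 1 from day 12 to day 26 for the 9 tested fibrillar collagen genes (horizontal axis, bars are 95% intervals of the limma fit), with filled points for an adjusted p under 0.05 and a dashed line at the median of all tested genes. Col1a1, Col1a2 and Col3a1 lie to the right of 1, Col27a1 and Col24a1 to the left of -1, and the type V genes and Col11a1 have intervals that reach or come near 0.

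No member passed limma's test between neighbouring days. From day 15 to day 21, where 1.40% of all tested genes passed (0.491% higher and 0.910% lower), the unadjusted p was under 0.05 for 3 of 9 members. These were Col1a1 with a log2 change of 0.90 (SE 0.23, adjusted p 0.0921), Col1a2 with 0.55 and Col24a1 with -0.82. Col1a1 passed this step only when the prior of the fit was made robust, with an adjusted p of 0.0451. From day 21 to day 26, where 0.319% of genes passed (0.0996% higher and 0.219% lower), the unadjusted p was under 0.05 for 2 members, Col24a1 with a log2 change of -1.12 (SE 0.27, adjusted p 0.098) and Col27a1 with -0.71. From day 12 to day 15, where 0.159% of genes passed (0.0863% higher and 0.0730% lower), it was under 0.05 for 0 of 9 members.

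The starts of 5 of these genes are printed because the members split by direction. Of the 10 members, 7 were matched by symbol in the RefSeq promoter table (GRCm38.p6), and Col1a1, Col2a1 and Col5a2 are named only. Each run holds 250 bases before and 20 after the annotated start, 5′ to 3′ on the gene's strand. Capitals mark 4 short motifs searched on both strands, with the share of 32851 promoters of this length that held each. The CCAAT box, the letters CCAAT, was in 35.4% of them. The core of the TATA box, the letters TATAA, was in 23.7%. The GC box, the letters GGGCGG, was in 34.1%. The cyclic AMP response element, TGACGTCA, was in 1.73%. No motif overlaps another, but TATAA can overlap its own reverse.
Col1a2, chr6:4505368-4505637, plus strand, rose: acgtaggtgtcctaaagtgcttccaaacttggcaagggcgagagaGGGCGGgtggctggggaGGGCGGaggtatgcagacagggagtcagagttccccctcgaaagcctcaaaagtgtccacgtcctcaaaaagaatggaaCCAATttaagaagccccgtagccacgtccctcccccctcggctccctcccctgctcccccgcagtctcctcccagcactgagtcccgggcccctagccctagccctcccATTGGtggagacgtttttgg
Col3a1, chr1:45311288-45311557, plus strand, rose: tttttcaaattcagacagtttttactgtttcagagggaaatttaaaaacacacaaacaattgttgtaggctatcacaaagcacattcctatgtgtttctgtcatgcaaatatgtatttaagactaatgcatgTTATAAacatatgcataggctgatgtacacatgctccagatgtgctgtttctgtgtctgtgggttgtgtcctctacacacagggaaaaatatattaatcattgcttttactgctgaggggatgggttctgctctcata
Col5a1, chr2:27886175-27886444, plus strand, not passed: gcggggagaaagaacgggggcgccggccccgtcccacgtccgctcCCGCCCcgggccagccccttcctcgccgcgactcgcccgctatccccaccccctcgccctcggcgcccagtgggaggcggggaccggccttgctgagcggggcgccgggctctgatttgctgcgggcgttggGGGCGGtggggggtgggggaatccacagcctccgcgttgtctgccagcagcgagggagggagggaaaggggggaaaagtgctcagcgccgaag
Col24a1, chr3:145292222-145292491, plus strand, fell: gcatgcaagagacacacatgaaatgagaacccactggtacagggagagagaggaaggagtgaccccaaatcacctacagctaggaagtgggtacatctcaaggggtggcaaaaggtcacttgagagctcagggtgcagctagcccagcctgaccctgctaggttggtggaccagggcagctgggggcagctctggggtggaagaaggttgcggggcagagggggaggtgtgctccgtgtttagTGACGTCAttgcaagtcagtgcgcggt
Col27a1, chr4:63215162-63215431, plus strand, fell: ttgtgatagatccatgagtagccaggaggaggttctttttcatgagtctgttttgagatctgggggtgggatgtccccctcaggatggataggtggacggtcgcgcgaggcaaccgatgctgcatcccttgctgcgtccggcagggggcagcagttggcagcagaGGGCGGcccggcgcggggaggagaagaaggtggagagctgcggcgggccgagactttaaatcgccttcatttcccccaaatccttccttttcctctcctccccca

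The 2 printed genes that rose had no motif in common in the window. Col1a2 held the CCAAT box at -109 and, reversed, at 1, and the GC box at -205 and -188, where 1 is the annotated start. Col3a1 held only the TATA box core, at -118 and -117, a single place that reads so on both strands. Its GC content of 36.3% was at percentile 5.7 of all promoters, whose median was 52.6%. Col5a1 held the GC box on either strand at -205 and -73, with a GC content of 74.8%. Of the genes that fell, Col24a1 held the cyclic AMP response element at -7 and Col27a1 the GC box at -85. A match is a description of the letters and not a bound site, and the table's start for Col1a2 and Col27a1 lies inside the gene span given above, so other starts of these genes were not searched.

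The fibrillar collagens together took a growing part of the libraries. Their summed share of all TPM was 3.57% and 4.93% on day 12, then 4.71% and 5.01% by day 15, 8.47% and 6.71% by day 21, and 9.58% and 8.34% by day 26. All libraries of days 21 and 26 were above all of days 12 and 15. The mean was 4.25% ± 0.96 (SD, n = 2) on day 12 and 8.96% ± 0.87 (SD, n = 2) on day 26, with p 0.0476 for a difference between days in an exact permutation test over all ways to pair the 8 libraries, whose smallest p is 0.00952. Leaving out single libraries gave p up to 0.133, with a difference between 4.03 and 5.39 percentage points.

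Within that sum, the genes of types I and III made up 94.3% in both day 12 libraries and 97.6% and 98.1% on day 26. Type V genes went from 5.52% and 5.56% of the members' TPM on day 12, through 5.07% and 5.03% (day 15) and 2.995% and 3.11% (day 21), to 2.38% and 1.88% by day 26. The libraries of a day lay closer to each other than to those of any other day. As a share of all TPM, type V took 0.197% and 0.274% on day 12 against 0.228% and 0.157% by day 26, which overlap. Types II, XI, XXIV and XXVII together took at most 0.140% of the members' TPM in every library.

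**Figure D3:**
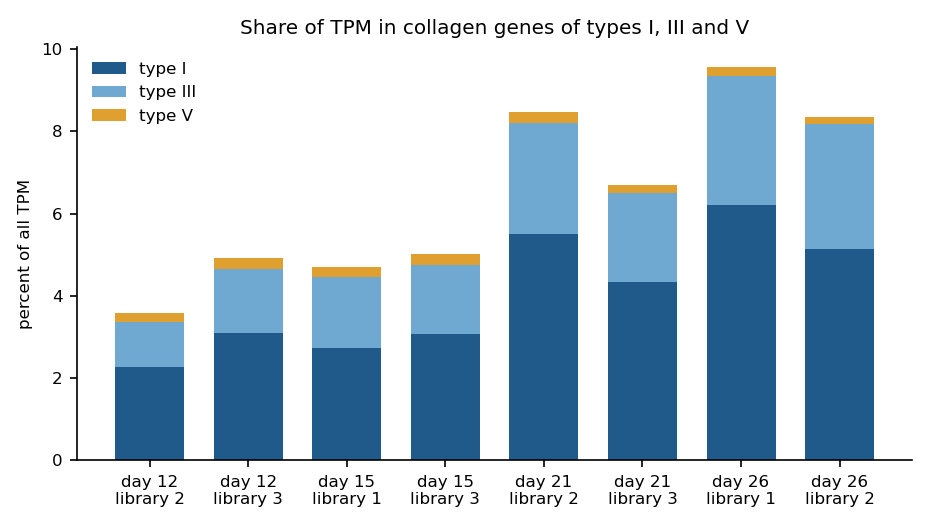
Percent of all TPM (vertical axis, from 0) in the collagen genes of types I, III and V, stacked in each of the 8 libraries. The stack is about 4% to 5% high on days 12 and 15 and between 6.71% and 9.58% on days 21 and 26, and the type V layer stays thin.

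Ratios between members within a library do not change when the whole library is multiplied by a factor, and 8 were tested for a difference between days by the same exact permutation test with Benjamini-Hochberg adjustment. The ratio of Col5a1 to Col1a1, between the chain that starts fibrils and the main chain of the fibril, was 0.0821 and 0.0857 on day 12, then 0.0863 and 0.0868 by day 15, 0.0445 and 0.0487 by day 21, and 0.0350 and 0.0294 by day 26. The change from day 12 to day 26 was -1.39 in log2, or 2.61-fold lower (permutation p 0.00952, the smallest the test can give, adjusted 0.0381). Days 12 and 15 lay close together, days 21 and 26 were lower in all 4 libraries, and the steps after day 15 therefore hold nearly all of the change.

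The ratio of Col24a1 to Col1a1 changed by -3.58 in log2, 12.0-fold lower on day 26 (adjusted permutation p 0.0457), and that of Col27a1 to Col1a1 by -2.46, 5.49-fold lower (adjusted permutation p 0.0457). In both, all libraries of days 21 and 26 were below all of days 12 and 15.

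The ratio of the alpha 2 to the alpha 1 chain of type I, Col1a2 to Col1a1, was 0.610 and 0.599 on day 12, then 0.749 and 0.744 by day 15, 0.582 and 0.595 by day 21, and 0.678 and 0.616 by day 26 (adjusted permutation p 0.0381). It was highest in both day 15 libraries, and from day 12 to day 26 it changed by only 0.10 in log2. Col3a1 to Col1a1 followed the same order of days, with 0.774 and 0.814 on day 12, then 1.13 and 0.968 by day 15, 0.782 and 0.794 by day 21, and 0.851 and 0.955 by day 26 (adjusted permutation p 0.0457). In these libraries the 3 messages did not keep a fixed proportion, although all rose over the whole span. Both ratios share Col1a1 and passed under few alternatives, as given below.

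Ratios within the minor chains did not pass. Col5a2 to Col5a1 changed by 0.12 in log2 (adjusted permutation p 0.272), Col5a3 to Col5a1 by -0.31 (0.81) and Col11a1 to Col5a1 by 0.61 (0.254). The 5 ratios that passed all have Col1a1 as denominator, so they share its changes and are not independent of each other. They did not pass under most of the 11 alternatives, which include leaving out each single library. Over Col1a1, Col1a2 and Col5a1 passed in 3 of the 11, and Col3a1, Col24a1 and Col27a1 in 2. Leaving out day 12 library 2 was among the failures in each case. Quantile normalization is not a single factor and does alter ratios. After it the changes were -0.62 for Col5a1, -2.21 for Col24a1 and -1.48 for Col27a1 over Col1a1, and none of the 8 ratios passed, with adjusted permutation p of 0.114 or more.

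**Figure D4:**
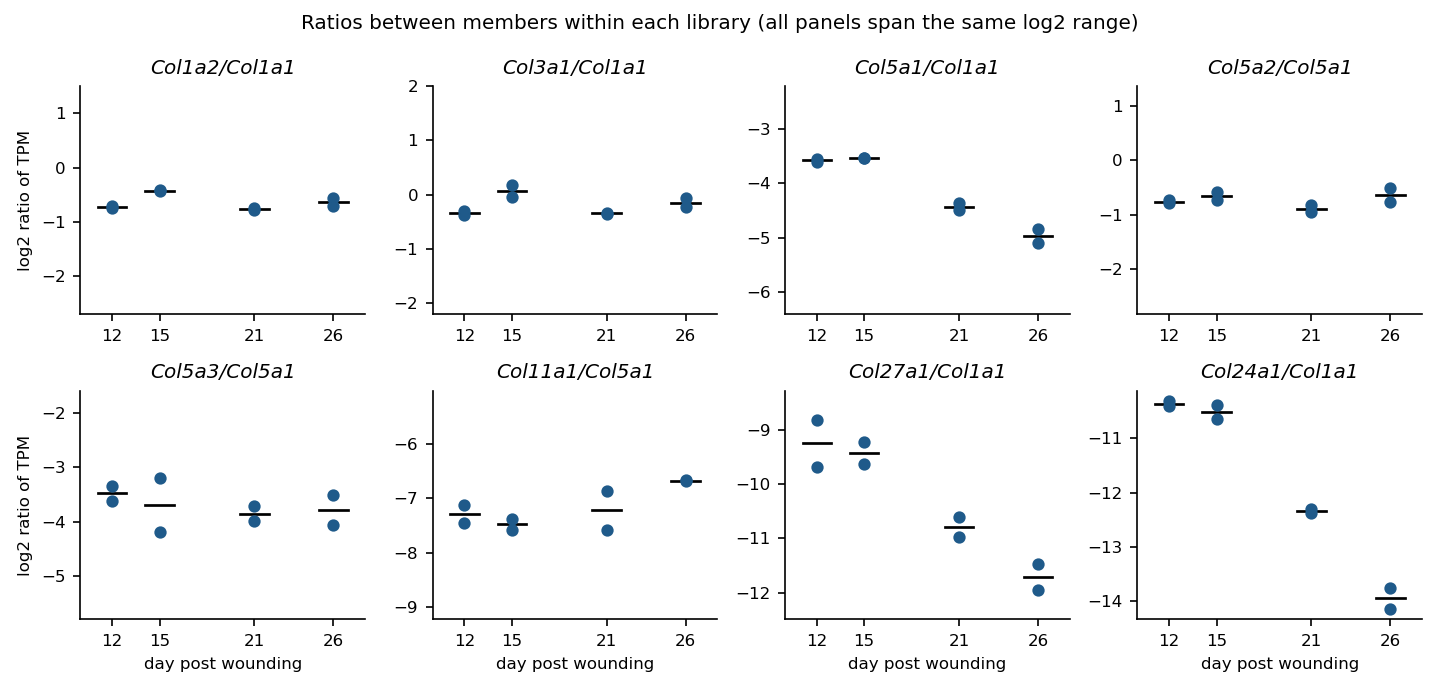
Log2 of the TPM ratio between pairs of fibrillar collagen genes within each library (vertical axis, the same span in all panels) against day post wounding, with points for libraries and bars for day means. Col5a1, Col24a1 and Col27a1 over Col1a1 step down after day 15, whereas Col1a2 and Col3a1 over Col1a1 are highest on day 15 and vary little.

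Over the 8 libraries, as a description, the log2 levels of Col1a2 and Col3a1 had a Pearson r of 0.98, Col1a1 and Col1a2 0.96, Col1a1 and Col3a1 0.94, Col24a1 and Col27a1 0.88, and Col5a1 and Col5a2 0.87. Col1a2 and Col27a1 had an r of -0.84. All these points share the libraries and their scaling. Among 7113 genes of at least median level, those most like Col1a1 were Ptger3, a prostaglandin E receptor (r 0.98), Lrp1, an endocytic receptor (0.97), Col1a2 (0.96), Podn, a small leucine-rich matrix protein (0.96), and Dkk2, a Wnt antagonist (0.96). Those most like Col5a1 were Mdga1 (0.96), Tm9sf1 (0.95), Bmyc (0.93), Prkcsh, a glucosidase subunit of the endoplasmic reticulum (0.92), and Fndc1 (0.92). Those most like Col24a1 were Elk3, an ETS transcription factor (r 0.996), Apobec3 (0.99), Adamts14, a protease that trims procollagen (0.99), Dbn1, an actin-binding protein (0.99), and Usp22 (0.98).

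The authors' deposited table of time-course clusters holds 4120 of the 43346 genes, 5 of the 10 members among them, and these are the 5 that passed here. The clusters describe the same series of samples, so the match is a look-up and not independent support. Col1a1, Col1a2 and Col3a1 stand together in cluster C4, with p-values in the authors' deposited table of 0.0110, 0.00651 and 0.00132 and folds of day 26 over day 12 of 2.1, 2.2 and 2.3. Col24a1 and Col27a1 stand in cluster C2, with p-values in the authors' deposited table of 0.00226 and 0.0163. Their folds in that table, -4.3 and -2.5, stand under a header for day 26 over day 21, but the deposited means give 4.26 and 2.51 for day 12 over day 26 and 0.463 and 0.595 for day 26 over day 21.

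The genes that make, trim, bind and degrade collagen were then counted by role for day 26 against day 12. Of the other, non-fibrillar collagens, 26 were tested, 4 rose and 4 fell, with a median log2 change of -0.45. Col9a2, counted above as a cartilage marker, is among those that fell. Without single libraries 2 to 6 fell, with 2 without day 12 library 3, where the median was -0.23, and the median was -0.14 when 5 TPM were required, -0.15 with no filter, -0.17 with a pseudocount of 5, -0.18 under quantile normalization and -0.30 under median ratio scaling. Col14a1, a collagen on the fibril surface, rose by 1.38 (adjusted p 0.00153), from 110 to 284 TPM, and Col13a1, a membrane collagen, rose by 2.14 (adjusted p 0.00355) from 1.22 to 8.81 TPM. Col12a1, also on the fibril surface, changed by -1.14 (adjusted p 0.00239), and Col7a1, the anchoring fibril collagen under the epidermis, by -2.04 (adjusted p 0.000789).

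Of 23 genes of hydroxylation and folding, 4 rose and 2 fell, with a median of -0.09 that was 0.11 under median ratio scaling. Serpinh1, the collagen-specific chaperone HSP47, rose by 1.21 (adjusted p 0.00302), from 1039 to 2405 TPM, and P4ha2, a prolyl hydroxylase subunit, by 0.97 (adjusted p 0.0229). Its relative P4ha3 changed by -0.93 (adjusted p 0.0375), and Plod2, which hydroxylates lysines at the ends of the chains, by -1.90 (adjusted p 0.00181), from 18.2 to 4.16 TPM. The counts were 1 higher and 1 lower without day 12 library 2, 2 and 1 without day 12 library 3 or day 26 library 2, and 1 and 2 without day 26 library 1.

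Of 12 tested genes of procollagen trimming and crosslinking, 4 rose and 4 fell. The falling side held Adamts14 at -1.69 (adjusted p 0.00101) and the lysyl oxidase relative Loxl3 at -1.06 (adjusted p 0.00478). The rising side held Loxl4 at 1.88 (adjusted p 0.00165) and Pcolce2, an enhancer of C-terminal trimming, at 2.56 (adjusted p 0.00365). The other 4 are named after their values were seen. Lox, the founding lysyl oxidase, rose by 1.40 and Adamts2, the main protease of the N-terminal end, by 0.84, whereas Loxl2 changed by -1.44 and Bmp1, the protease of the C-terminal end, by -0.81. Lox went from 299 to 797 TPM and Loxl2 from 394 to 147 TPM, so their order was opposite on days 12 and 26. Over the list, 2 rose and 3 fell without day 12 library 2.

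Of 19 tested proteins that bind fibrils and shape them, 12 rose and 1 fell, with a median of 0.69. The fibroblast markers that rose, Dcn, Fbln1, Lum and Dpt, are among these 12, so the counts of both lists share genes. Dcn, decorin, rose by 1.79 (adjusted p 0.000437), Fmod, fibromodulin, by 1.54 (adjusted p 0.00222), Prelp by 3.71 (adjusted p 0.000402), and Tnxb, tenascin-X, by 3.73 (adjusted p 0.000402). The falling gene was Postn, periostin, at -1.17 (adjusted p 0.0109), from 3658 to 1619 TPM. It did not pass under median ratio scaling, with no filter on low values or when some of the libraries were left out. The number that rose was 11 under quantile normalization and under median ratio scaling, 5 when no filter on low values was used, 4 without day 12 library 2, 6 without day 26 library 1 and 8 without either day 21 library.

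Of 13 tested genes for collagen receptors and uptake, 0 rose and 1 fell in limma's test as deposited, and 2 rose under quantile normalization and under median ratio scaling. The gene that fell was Lair1, an inhibitory receptor of leukocytes, at -1.86 (adjusted p 0.0176), beside the fall of 12 of 13 leukocyte markers, and it did not pass without either day 12 library, with no filter or under quantile normalization. Of 17 tested proteases and their inhibitors, 4 rose and 4 fell, with 3 and 2 without day 12 library 2 or with no filter, and 6 and 3 under quantile normalization. Mmp8, a collagenase, rose by 3.40 (adjusted p 0.000326) from 1.63 to 27.0 TPM, and Timp3, an inhibitor of such proteases, by 1.76 (adjusted p 0.00365). Mmp9, a gelatinase, changed by -3.12 (adjusted p 0.00101) and Ctss, a cathepsin of macrophages, by -2.90 (adjusted p 0.000626). The others that passed are named after their values were seen. Ctsk rose by 1.21 and Mmp2 by 0.89, whereas Mmp13 changed by -3.23 and Timp1 by -0.67. For Mmp13 the day 12 libraries stood far apart, at 64.6 and 12.7 TPM, with a mean of 2.34 TPM by day 26. The part of the leukocyte markers in these changes was not tested.

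Of 38 regulators of collagen genes, 2 rose and 9 fell, a number that was 3 under quantile normalization, 4 under median ratio scaling and 2 to 7 without single libraries, lowest without day 12 library 2. Runx1 changed by -1.54 (adjusted p 0.00136), Runx2, a transcription factor of bone formation, by -1.75 (adjusted p 0.005), and Ctgf, a target and partner of TGF-beta signalling, by -1.80 (adjusted p 0.00396). Ctgf did not move one way, since it rose by 1.56 from day 15 to day 21 (adjusted p 0.041) and then changed by -1.95 to day 26 (adjusted p 0.0447), with means of 33.8, 12.1, 38.6 and 9.26 TPM over the 4 days. Osr2, a zinc finger transcription factor, rose by 1.50 (adjusted p 0.0025). The other rising gene, named after its values were seen, was Larp6, which binds a stem-loop in the messages of the type I and III chains, at 0.90 (adjusted p 0.0159), from 8.69 to 17.1 TPM.

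**Figure D5:**
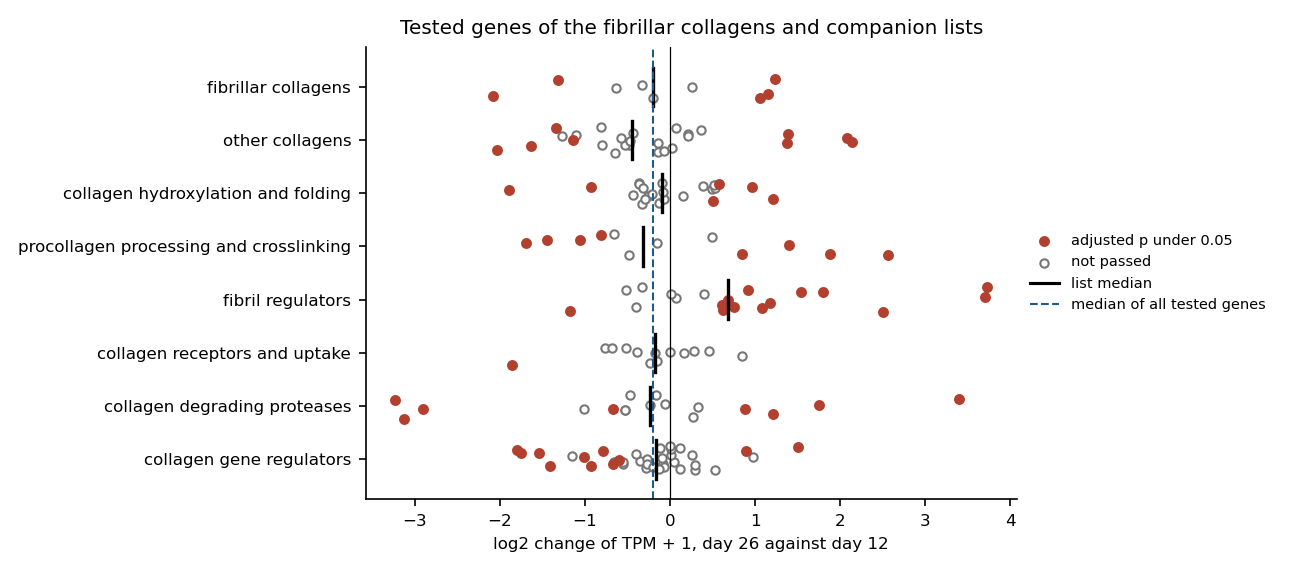
Log2 change of TPM + 1 from day 12 to day 26 (horizontal axis) for each tested gene of the fibrillar collagens and 7 lists of related genes, with filled points for an adjusted p under 0.05, a black mark at each list median and a dashed line at the median of all tested genes. The fibril regulators lie mostly to the right, with a median of 0.69, and the other lists spread to both sides.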

How the data were processed

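Wound myofibroblasts were sorted by tdTomato from 4 days and sequenced by SMART-seq2, with 8 libraries, per the labels. The authors' deposited table gives a signal per gene and library. No value is under 1, and the columns have equal sums, at the TPM scale once 1 is taken off each value, so the values are TPM plus 1, and TPM were recovered by that subtraction. RSEM 1.12.2 and the build mm10 come from the submitters' processing notes, and the aligner is not given in the sources used. The authors' deposited cluster tables give a p-value per gene, whose test is not stated, and a fold. Their 40 columns of values per sample were not used.

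The value columns carry numbers that differ from the labels' replicate numbers, so columns were assigned to days only. TPM keep no depth, and precision was judged from the 2 libraries of a day.

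The 15062 genes that reached 1 TPM in 2 or more libraries were tested on log2(TPM + 1) with the limma trend method (limma 3.58.1, R 4.3.3) with 1 term per day (4 residual and 4.76 prior degrees of freedom), 2-sided contrasts and an F test, and Benjamini-Hochberg adjustment within each over all tested genes at 0.05. Verbs of change are used of genes that passed. Comparisons with a day in common use its libraries again and are not independent. Ratios and shares were tested by exact permutation in Python 3.11.15. Genes were placed by GENCODE on GRCm38.

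The members, lists and tests were chosen with earlier results of these data known, and counts over the lists are descriptions. All members are named. From each list the genes that passed, at most 4 by adjusted p, are named, with exceptions stated. Alternatives were other pseudocounts, filters, scalings and limma settings, and leaving out libraries.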

Additional observations from a re-analysis of the deposited data

How the results depend on the processing

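No paired analysis was possible because the value columns carry numbers that differ from the replicate numbers of the labels. No member's log2 change that passed changed direction under any alternative. With no filter, or without the pair of libraries high in Xist, the members' log2 changes from day 12 to day 26 stayed the same. Those treatments alter only the estimate of spread and the adjustment for that comparison. Of the 9 tested members, 3 were higher on day 26 than on day 12, and the number was 0 with no filter on low values, 0 under quantile normalization, 0 without the pair of libraries high in Xist, and 0 to 3 when single libraries were left out. The number lower was 2, and 1 to 2 when single libraries were left out, at 1 without day 12 library 2 and without day 26 library 1. The F test over the 4 days called 5 members, but 1 with no filter, 2 under quantile normalization, 2 under median ratio scaling, 3 without the trend, 0 without the pair high in Xist and 1 to 5 without single libraries. The robust prior called 1 member for day 21 against day 15. The other pseudocounts, the stricter filter and scaling to all genes other than the members moved no count of members by over 1.5 times. Over all genes, the number called for day 26 against day 12 was 2562, 1667 with no filter and 718 without day 12 library 2. The 4 later against the 4 earlier libraries give another quantity, their difference of means, and the smallest p of that test, 0.0286, adjusts to 0.0762 where 3 of 8 ratios reach it. Col5a1, Col27a1 and Col24a1 to Col1a1 reached it, at -1.14, -1.91 and -2.70, so this p shows nothing against them. Col1a2 and Col3a1 to Col1a1, highest on day 15, were -0.12 (adjusted permutation p 0.411) and -0.11 (0.555), opposite in sign to their changes from day 12 to day 26. After quantile normalization, an alternative chosen after the data were seen, the changes from day 12 to day 26 were 0.19 and 0.18 for this pair and -0.62, -1.48 and -2.21 for the other three, and none passed. Without single libraries the changes from day 12 to day 26 of Col1a2, Col3a1, Col5a1, Col27a1 and Col24a1 to Col1a1 ranged from 0.028 to 0.166, 0.10 to 0.27, -1.51 to -1.26, -2.89 to -2.02 and -3.78 to -3.38, and the share of all TPM rose by 4.03 to 5.39 percentage points. The cause was not tested. A day left with 1 library was assumed to vary like the others. Depth is unknown.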
